A study of Mus musculus with 39 samples.

Results

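Frizzled proteins are multi-pass membrane receptors for the secreted Wnt proteins. Wnt bound to a Frizzled and an LRP5 or LRP6 co-receptor recruits Dishevelled to the cytoplasmic face of the receptor, and the complex that degrades β-catenin is then held inactive. Frizzleds also act in planar cell polarity, where β-catenin is not needed, and Wnt signals guide the migration and fate of neural crest, the lineage from which neuroblastoma arises.

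The 9 transcripts whose symbol is Fzd1 to Fzd9 were taken from a table of 20333 mouse transcripts, 1 per gene. The family was chosen by the strong reduction of Fzd2 in the combined treatment, so the values of Fzd2 in any contrast with that group are given as a description, with no test. Fzd10 is also in the table, outside the 9, with 0.110 RPKM in control footprints (RPKM, reads per kilobase of coding sequence and 1e+06 reads).

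Tumors came from TH-MYCN mice, which develop neuroblastoma from a MYCN transgene driven by the rat tyrosine hydroxylase promoter in the sympathetic lineage. Every tumor was from a different mouse, and the samples were labelled as MYCN amplified. The groups of 5 mice were a diet lacking proline and arginine plus DFMO (mice PD), a control diet plus DFMO (mice D), the proline- and arginine-free diet alone (mice P), and the control diet alone (mice C). DFMO (difluoromethylornithine) is an irreversible inhibitor of ornithine decarboxylase, and proline and arginine are sources of its substrate ornithine. Ribosome footprints were sequenced from all 20 tumors and total RNA of the same extracts from 19 of them (all but control C5840, whose RNA is not analysed here). No age, sex or batch was given.

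Footprint libraries held 2.14 to 12.4 M counts (M, 1e+06), with the controls at 2.14 to 4.57 M, and RNA libraries 10.0 to 51.5 M. The RNA libraries of C5696, C5778, C5781 and P5828 stood apart, with 8806 to 13387 transcripts detected against 14977 to 16317 in the others and 39.8 to 51.6% of counts in ribosomal protein genes against 21.9 to 33.0%. Among the other RNA libraries, D135 and D5823 did not have the footprints of the same mouse among their 5 closest, and they are called unmatched below. The same held for C5696 and C5781 of the low-complexity libraries. RNA differences that moved when the low-complexity libraries were left out are therefore given both ways. C5812 is then the only control RNA, so no p is given for such fits against control. The label calls the cells neuroblasts, and the 10 neuroblast markers (Th, Dbh, Hand2 and others) summed to 1760 to 2225 CPM (counts per 1e+06) in PD footprints, 1360 to 1703 in D, 1489 to 1680 in P and 1443 to 2070 in C, with none at 0. In whole tumors, fewer cells of a type and less RNA per cell cannot be told apart.

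The Frizzled genes share a short cytoplasmic motif, KTxxxW, that binds Dishevelled, and it is shown here to identify the members and to compare them. The lines give the coding strand around it, 5′ to 3′, from the counted GENCODE M21 transcript on GRCm38, with the 6 codons of the motif in capitals.
Fzd2: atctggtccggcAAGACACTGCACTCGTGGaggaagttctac
Fzd1: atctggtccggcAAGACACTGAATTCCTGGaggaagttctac
Fzd7: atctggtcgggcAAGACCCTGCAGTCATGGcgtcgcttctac
Fzd5: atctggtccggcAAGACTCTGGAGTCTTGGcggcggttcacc
Fzd3: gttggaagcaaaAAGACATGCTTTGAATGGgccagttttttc
The motif starts at codon 548 of 570 in Fzd2, 620 of 642 in Fzd1 and 550 of 572 in Fzd7, so that 17 codons follow it in each of these closely related receptors. In Fzd3 it starts at codon 502 of 666, ahead of a long cytoplasmic tail, and Fzd6 is built alike with the motif at codon 498 of 709. A footprint is about as long as a 28-base window, and 101 of the 1683 such windows of the Fzd2 coding sequence (6.0%) also occur in Fzd1 or Fzd7, as do 4.90% of the windows of Fzd1 and 2.96% of those of Fzd7. How the authors' counting treated reads from these shared stretches is not given in the sources used here, so the counts of Fzd1, Fzd2 and Fzd7 are uncertain to that extent.

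Fzd2 lies on chromosome 11 (chr11:102604396-102608058, plus strand) in a single exon. Fzd1 (chr5:4753839-4758035, minus strand), Fzd7 (chr1:59482424-59486955, plus strand) and Fzd9 (chr5:135248938-135251230, minus strand) also have 1 exon. Fzd4 (chr7:89404355-89413134, plus strand) and Fzd5 (chr1:64730558-64737751, minus strand) have 2 exons. Fzd3 (chr14:65192449-65262463, minus strand) and Fzd6 (chr15:39006034-39038188, plus strand) have 7. The coding sequence of Fzd2 is 63.1% GC, at the 95.3rd percentile of the 19536 coding sequences measured, whose median is 52.1%. Fzd3, Fzd4 and Fzd6 are at 46.3, 51.8 and 49.0% GC and the other members, Fzd2 included, between 61.8 and 64.9%. Because the diet lacked proline, runs of proline codons were counted. The longest run in Fzd2 is 2 codons, printed in capitals with its flanks, and the longest in Fzd1 is 4.
Fzd2: gagcaggccatcCCGCCGtgccgctccatc
Fzd1: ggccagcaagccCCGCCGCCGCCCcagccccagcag
Fzd8 has a run of 6 and the remaining members runs of 2, while 20.5% of all coding sequences hold a run of at least 3. Proline makes up 7.02% of the codons of Fzd2, against a median of 5.27% over all coding sequences.

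In control tumors Fzd2 and Fzd3 were the main Frizzleds by footprint density. Fzd2, a receptor for Wnt5a and canonical Wnts in mesenchyme and nervous system, averaged 22.2 ± 5.61 RPKM (SD, n = 5), at the 81.2nd percentile of all transcripts. Fzd3, required in mice for axon guidance and sympathetic innervation, averaged 8.73 ± 1.57 RPKM. Fzd4, the endothelial receptor for norrin, averaged 2.20 ± 1.20 RPKM, Fzd7 1.91 ± 0.902, Fzd5 1.61 ± 0.742, Fzd1 1.22 ± 0.891 and Fzd9 1.21 ± 0.673. These 5 overlapped between mice, so their order is not resolved. Fzd8 (0.451 ± 0.546) and Fzd6 (0.380 ± 0.532) were lowest, with 13 and 11 counts in all 5 control libraries together. Fzd6 and Fzd8 did not pass the filter on low counts in footprints, which left 7 of the 9 members for testing, and in RNA only Fzd1, Fzd2, Fzd3 and Fzd9 passed.

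**Figure D1:**
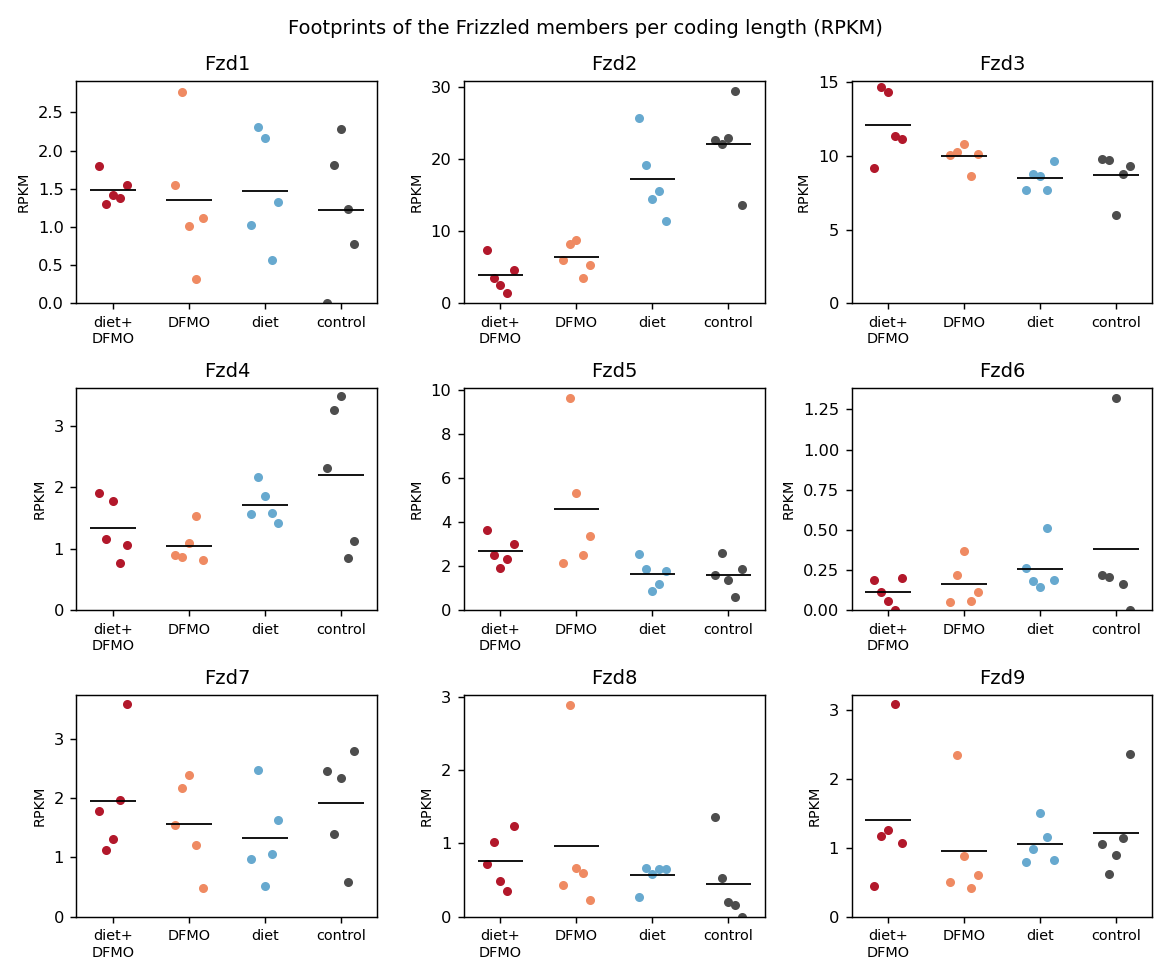
Footprint RPKM of each Frizzled member, 1 panel a gene with its own linear axis, points for mice and a line for the group mean, groups from left to right diet plus DFMO, DFMO, diet and control. Fzd2 averaged 3.85 and 6.36 RPKM in the groups with DFMO, with and without the diet, against 17.2 RPKM in the diet and 22.2 RPKM in the control group.

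Fzd2 footprints were low in both groups that received DFMO. They were 13.4, 5.66, 4.15, 1.96 and 7.29 CPM in mice PD5732, PD5736, PD5746, PD5805 and PD5825. With DFMO alone they were 10.5, 12, 14.3, 6.15 and 9.98 CPM in D135, D5747, D5802, D5806 and D5823. The groups without DFMO were higher, with 47.1, 34.2, 26.9, 29.1 and 21.1 CPM in P5702, P5705, P5784, P5785 and P5828 and 37.9, 37.3, 40.5, 50.0 and 23.0 CPM in C5696, C5778, C5781, C5812 and C5840. The highest value with DFMO lay below the lowest value without it, whereas PD overlapped D, and P overlapped C. These values rest on 13 to 219 Fzd2 counts per footprint library.

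Against control, the log2 difference of Fzd2 footprints in diet plus DFMO was -2.55 ± 0.36 (SE), 0.171 of the control level. Against the diet alone it was -2.29 ± 0.35, and against DFMO alone -0.71 ± 0.35. These contrasts chose the family and were not tested. With DFMO alone Fzd2 footprints were at 0.280 of control, a log2 difference of -1.84 ± 0.34 (edgeR adjusted p = 0.00199), with 5 of 5 D mice below all controls. This comparison shares its control mice with the contrast that chose the gene. With the diet alone Fzd2 differed from control by less than the spread between mice, at -0.26 ± 0.33 (edgeR adjusted p = 0.848, 95% interval -0.90 to 0.39). The departure from additivity of diet and DFMO was -0.45 ± 0.48 on the log2 scale, described with no test.

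Fzd2 RNA was lowest in diet plus DFMO too, with 1.55, 1.22, 1.26, 0.270 and 2.53 CPM in the PD mice in the same order. With DFMO alone it was 6.45, 4.54, 6.82, 3.52 and 4.98 CPM. In the diet group it was 21.9, 19.6, 22.0, 20.2 and 15.6 CPM, against 13.9, 11.6, 8.03 and 14.6 CPM in C5696, C5778, C5781 and C5812. On this TMM-scaled CPM, PD, D, C and P mice formed ascending ranges that did not overlap. On deposited RPKM PD mice (0.200 to 1.48) stayed below all others, but D (2.67 to 4.95), P (3.98 to 16.6) and C mice (1.93 to 8.68) overlapped. Among all RNA transcripts tested, PD values lay below all values of control in 13.1%, of the diet alone in 7.28% and of DFMO alone in 9.51%, and D values lay below all controls in 13.5%. The log2 difference of diet plus DFMO was -3.15 ± 0.41 against control, -3.87 ± 0.41 against the diet alone and -1.95 ± 0.38 against DFMO alone, with no test. Without the low-complexity and unmatched libraries, which leaves C5812 as the only control RNA, these were -3.45, -3.96 and -1.90. On deposited RPKM they were -2.30, -3.63 and -2.12.

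DFMO alone differed from control in Fzd2 RNA by -1.20 ± 0.38 on the log2 scale (edgeR adjusted p = 0.0182). That call depended on the libraries and the scale. The difference was -1.11 without control C5696 (edgeR adjusted p = 0.0502). It was at -1.30 without the unmatched RNA libraries (edgeR adjusted p = 0.0587) and at -0.18 on the deposited RPKM (limma adjusted p = 0.774). Leaving out the 4 low-complexity libraries leaves C5812 as the only control RNA. The difference was then -1.47, and -1.55 without the unmatched libraries as well. In deposited RPKM, where the 3 low-complexity controls are not rescaled, Fzd2 RNA averaged 3.89 ± 0.864 in D mice (n = 5) and 5.0 ± 2.96 in controls (n = 4). In the diet alone Fzd2 RNA differed from control by 0.71 ± 0.39 (edgeR adjusted p = 0.227), although in CPM all 5 P values lay above all 4 controls, as in 2.49% of RNA transcripts tested. Without the low-complexity and unmatched libraries it was 0.51, again with C5812 as the only control RNA.

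**Figure D2:**
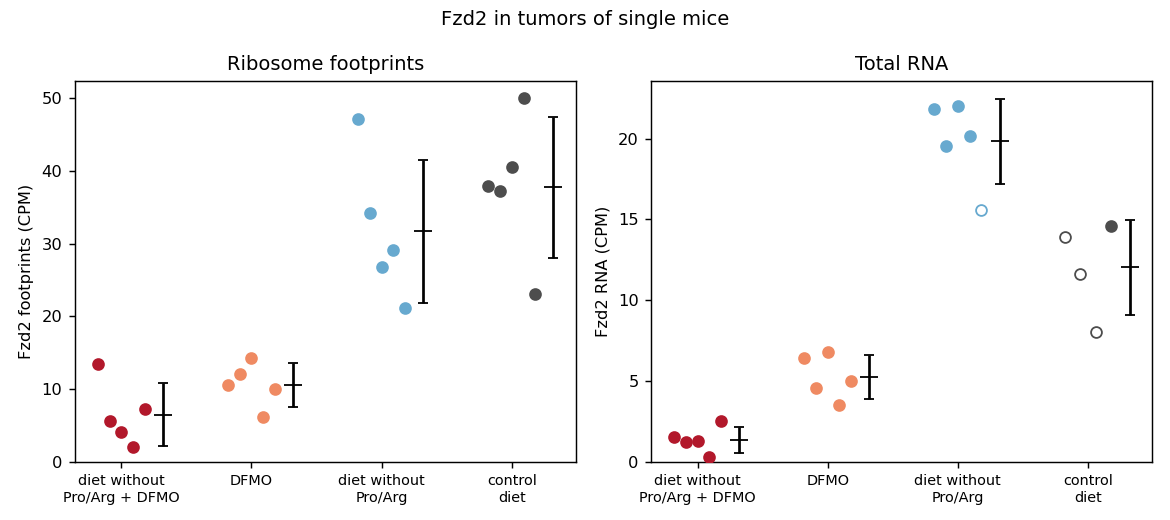
Fzd2 in each tumor in CPM, footprints on the left and RNA on the right, with points for mice, bars for mean ± SD, and open points for the 4 low-complexity RNA libraries. In footprints the groups with DFMO span 1.96 to 14.3 CPM and those without it 21.1 to 50.0 CPM. In RNA diet plus DFMO spans 0.270 to 2.53 CPM and DFMO alone 3.52 to 6.82 CPM.

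Footprints of Fzd2 relative to its RNA (translational efficiency) were estimated from both assays in 1 model. In the per-mouse ratio of footprint to RNA RPKM, Fzd2 had a median of 3.97 in PD mice (2.51 to 7.06), 1.33 in D mice (1.21 to 2.38), 1.33 in P mice (0.991 to 2.85) and 5.12 in C mice (3.39 to 11.9). The PD mice overlapped both P and C mice. The lowest PD ratio, 2.51, was just above the highest D ratio, 2.38. How many other transcripts lie apart this way was not counted, and the PD values of Fzd2 chose the family. The modelled log2 difference in efficiency for diet plus DFMO was 0.68 ± 0.52 against control, which turned to -0.36 on deposited RPKM. It was 1.60 ± 0.51 against the diet alone and 1.26 ± 0.51 against DFMO alone, all with no test. DFMO alone differed from control in efficiency by -0.57 ± 0.51 (edgeR adjusted p = 0.404) and the diet alone by -0.92 ± 0.51 (edgeR adjusted p = 0.251). Without the low-complexity and unmatched libraries, C5812 was the only control RNA. The values were then 0.93, 1.67 and 1.20 for diet plus DFMO in the same order of contrasts. They were -0.27 for DFMO alone and -0.74 for the diet alone. On deposited RPKM DFMO alone and the diet alone became -1.64 (limma adjusted p = 0.0280) and -1.71 (limma adjusted p = 0.0491). The share of all transcripts called in efficiency on that scale is not given here, so nothing is read from these calls.

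Fzd3 footprints were slightly higher in diet plus DFMO. They were 19.7, 28.2, 27.2, 19.3 and 20.7 CPM in PD mice, against 19.2, 19.2, 12.4, 17.4 and 18.3 CPM in C mice. In CPM all PD values exceeded all control values, as in 9.81% of transcripts tested. On deposited RPKM they overlapped, with C5696 at 9.82 and PD5732 at 9.21. The log2 difference was 0.41 ± 0.14 (1.33-fold, edgeR adjusted p = 0.0322), but leaving out C5781, C5812, PD5736 or PD5746 ended the call, with edgeR adjusted p of 0.0989, 0.0545, 0.108 and 0.0917. Against the diet alone Fzd3 was at 0.33 ± 0.14 (edgeR adjusted p = 0.0739), and without PD5732 at 0.38 (edgeR adjusted p = 0.0433). Against DFMO alone it was at 0.23 ± 0.14 (edgeR adjusted p = 0.396). D mice had 20.5, 17.5, 20.6, 18.1 and 22.2 CPM and P mice 16.5, 18.3, 18.8, 16.9 and 21 CPM, which overlapped control and were not called (edgeR adjusted p = 0.394 and 0.914).

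Fzd3 RNA moved the other way against control. It was 7.19, 8.11, 7.21, 7.27 and 7.08 CPM in PD mice and 6.27, 6.19, 5.93, 6.08 and 6.19 CPM in D mice, against 15.9, 17.5, 56.7 and 11.8 CPM in C mice. In CPM every control exceeded every PD mouse, as in 13.1% of RNA transcripts tested, and every D mouse, as in 13.5%. C5781, a low-complexity library, was far above the other controls. On deposited RPKM the PD and C ranges overlapped, with C5778 at 4.44 and PD5746 at 4.96. The log2 difference was -1.77 ± 0.37 in diet plus DFMO (edgeR adjusted p = 0.0013) and -2.03 ± 0.37 with DFMO alone (edgeR adjusted p = 0.00062). With the low-complexity libraries left out, which leaves C5812 as the only control RNA, these were -0.70 and -0.95. Without the unmatched libraries as well, DFMO alone was at -0.96. On deposited RPKM diet plus DFMO was at -0.56 (limma adjusted p = 0.0997). P mice had 11.5, 8.33, 13.1, 13.0 and 22.3 CPM of Fzd3 RNA, all above the PD mice, as in 7.28% of RNA transcripts tested. On deposited RPKM these groups overlapped, with P5828 at 4.87 and PD5746 at 4.96. The difference of diet plus DFMO from the diet alone was -0.88 ± 0.35 (edgeR adjusted p = 0.0827), and -0.65 with the low-complexity libraries left out (edgeR adjusted p = 0.0045). It was also called without C5781 (edgeR adjusted p = 0.0058) or P5705 (edgeR adjusted p = 0.04999). The diet alone differed from control by -0.89 ± 0.37 (edgeR adjusted p = 0.120), which passed without C5812 (-1.13, edgeR adjusted p = 0.0307) or P5828 (-1.08, edgeR adjusted p = 0.0239), but was -0.05 without all low-complexity libraries.

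The efficiency of Fzd3 was higher than in control by 2.18 ± 0.38 in diet plus DFMO (edgeR adjusted p = 0.000339) and by 2.21 ± 0.38 with DFMO alone (edgeR adjusted p = 0.00015). Leaving the low-complexity libraries out, the differences were 1.08 and 1.13, with C5812 as the only control RNA. Efficiency calls were common in both comparisons, at 27.8% of the transcripts tested in diet plus DFMO (13.7% in the higher direction) and 31.4% with DFMO alone (15.1% higher). Fzd1 and Fzd9 were not called in efficiency by edgeR in any comparison. On deposited RPKM Fzd9 was at -1.66 with DFMO alone (limma adjusted p = 0.0414), without a share over all transcripts to set it against. No member was called between diet plus DFMO and DFMO alone, where 0% of transcripts were called (371 at an unadjusted p under 0.05, edgeR). Against the diet alone, where 0.819% were called, Fzd3 was at 1.26 ± 0.36 (edgeR adjusted p = 0.0865), and at 0.93 once the low-complexity libraries were left out (edgeR adjusted p = 0.0060). It was also called without C5781, C5812 or P5705 (edgeR adjusted p = 0.0100, 0.0471 and 0.0376). In diet alone against control, 4.76% of transcripts were called and no member was, although Fzd3 (0.92 ± 0.38) passed without C5812 or P5828 (edgeR adjusted p = 0.0346 and 0.0235).

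Among the members tested apart from Fzd2, 1 of 6 was called in footprints of diet plus DFMO against control, Fzd3 in the higher direction. The background was 32.2% of all 12095 transcripts, and 16.7% in that direction. Against the diet alone 0 of these 6 were called, where 28.8% of transcripts were, and against DFMO alone 0 of 6, where 3.22% were. With DFMO alone against control 2 of 7 were called, Fzd2 lower and Fzd5 higher, at a background of 18.1%, made of 8.84% lower and 9.24% higher. The diet alone against control gave no call in any member or transcript (0% called, 1312 at an unadjusted p under 0.05 in edgeR, while DESeq2 called 40 higher and 62 lower). In the interaction of diet and DFMO 0 of 6 were called, at a background of 0.372%. Footprints of all D mice lay below all controls for Fzd2, as in 6.07% of transcripts. Fzd2 was also separated in diet plus DFMO against control and against the diet alone. The choice of the gene fixed this, so nothing is read from it beside the 10.1% and 8.72% of transcripts that lay apart in that direction.

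Fzd5, a receptor for canonical Wnts best known from eye and gut development, was higher with DFMO alone. It was 3.84, 14.4, 8.89, 4.61 and 6.43 CPM in D mice, against 2.74, 4.52, 2.48, 1.01 and 3.25 CPM in C mice. D5747 was the highest, and D135 lay within the control range. The log2 difference was 1.40 ± 0.38 (2.63-fold, edgeR adjusted p = 0.0154), and it was 1.01 without D5747 (edgeR adjusted p = 0.0588). In diet plus DFMO Fzd5 was 6.84, 4.26, 3.20, 3.47 and 4.93 CPM, which differed from control by 0.64 ± 0.39 (edgeR adjusted p = 0.222) and from DFMO alone by -0.76 ± 0.34 (edgeR adjusted p = 0.230). P mice had 1.62 to 4.80 CPM and differed from control by 0.08 ± 0.42 on the log2 scale (edgeR adjusted p = 0.977).

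Fzd4 came closest to a call without one. It was 3.28, 1.78, 2.72, 1.06 and 1.58 CPM in PD mice, 1.47, 1.18, 1.67, 2.56 and 1.44 CPM in D mice, and 3.66, 5.17, 5.79, 1.34 and 1.77 CPM in C mice. DFMO alone differed from control by -1.09 ± 0.38 (edgeR adjusted p = 0.0508), and leaving out any of 5 mice, such as C5812 (edgeR adjusted p = 0.0277), brought it past 0.05. Diet plus DFMO differed from control by -0.75 ± 0.38 (edgeR adjusted p = 0.130). Endothelial markers moved with it: 5 of 12 were called lower with DFMO alone, where 8.84% of all transcripts were, and their summed footprints were 67.3 to 166.3 CPM in D mice against 164.4 to 268.8 CPM in C mice, and 107 to 196 CPM in PD mice. Their part in the Fzd4 values was not tested.

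Fzd1 and Fzd7, the closest relatives of Fzd2, and Fzd9 showed no call in footprints in any comparison. In diet plus DFMO, Fzd1 was 3.71, 2.40, 2.61, 2.26 and 2.76 CPM, against 0, 3.45, 4.55, 2.35 and 1.48 CPM in controls. The difference was 0.17 ± 0.51 (edgeR adjusted p = 0.824, 95% interval -0.82 to 1.17). Fzd7 was 3.28, 1.86, 2.13, 2.86 and 5.71 CPM in diet plus DFMO, against 4.11, 2.37, 4.14, 1.01 and 4.73 CPM in controls. Its difference was -0.06 ± 0.43 (edgeR adjusted p = 0.933, interval -0.91 to 0.79). Fzd9 differed by 0.09 ± 0.48 (edgeR adjusted p = 0.904, interval -0.85 to 1.03). Fzd6, with 0 to 0.428 CPM in PD mice and 0 to 2.90 CPM in C mice, and Fzd8, with 0.603 to 2.36 CPM in PD mice and 0 to 2.74 CPM in C mice, were too sparse to test. Fzd6 had no count in PD5805, which allows up to 0.532 CPM (3 counts of the library total, counting error only). Fzd6 and Fzd8 had none in C5840, which allows 0.901 CPM, and Fzd1 none in C5696, which allows 1.40 CPM.

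Except for Fzd2, Fzd3 and Fzd9, Frizzled RNA was near the detection limit, with 69 to 128 counts per gene over all 19 libraries. The 3 low-complexity controls held no count of Fzd1, Fzd4, Fzd5, Fzd6, Fzd7 or Fzd8. Fzd1 held 0 to 2 counts in each control library, so it passed the filter on low counts only through the other groups. That favours a call higher than control, and nothing is read from one. Fzd1 had 53 counts in 5 D mice and 2 in 4 controls, a ratio of 10.7 (exact 95% interval 2.82 to 90.5, counting error only). It was called with DFMO alone (edgeR adjusted p = 0.0377), but not without C5696, C5778, C5781, D135, D5747 or D5823 (edgeR adjusted p between 0.0559 and 0.0925). Fzd7 had 31 counts in PD, 28 in D and 12 in P mice and none in controls. Per total count these were 5.19, 3.76 and 2.32 times a limit of 3 counts over the control group, with no error put on the treated counts. Most control libraries were of low complexity, so that limit may be too low. C5812 alone allows 0.0887 CPM, against 0.187 CPM in PD, 0.136 in D and 0.0837 in P mice from summed counts. All PD mice lay above all controls for Fzd7, as in 22.8% of RNA transcripts tested, and all D mice for Fzd1, Fzd7 and Fzd8, as in 24.1%. Fzd9 RNA was 7.46, 3.19, 1.92, 7.98 and 5.02 CPM in PD mice and 5.46, 1.21, 3.41 and 2.38 CPM in C mice. It was not called (0.73 ± 0.49, edgeR adjusted p = 0.235). Without the low-complexity and unmatched libraries it was at 1.07, with C5812 as the only control RNA. It was called on deposited RPKM (1.54, limma adjusted p = 0.0223). On that scale most RNA transcripts were called higher in this contrast and their median was raised as well, so nothing is read from that call. In RNA 1 of 3 members apart from Fzd2 was called in diet plus DFMO against control, where 40.8% of 14280 transcripts were. That member was Fzd3, lower, as were 17.7% of transcripts. With DFMO alone 3 of 4 were called at a background of 39.5%. Fzd1 was higher (21.9% of transcripts), which the filter favoured, and Fzd2 and Fzd3 were lower (17.5%). With the diet alone 0 of 4 were called at 3.4%. Against the diet alone 0 of 3 were called at 17.7%, and against DFMO alone 0 of 3 at 5.13%. In CPM the RNA of all 5 PD mice lay above all D mice for Fzd3 and below them for Fzd2. The same held for 9.3% of transcripts in the higher and 9.51% in the lower direction. On deposited RPKM Fzd3 overlapped, at 3.54 to 4.96 in PD and 3.22 to 4.27 in D mice.

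**Figure D3:**
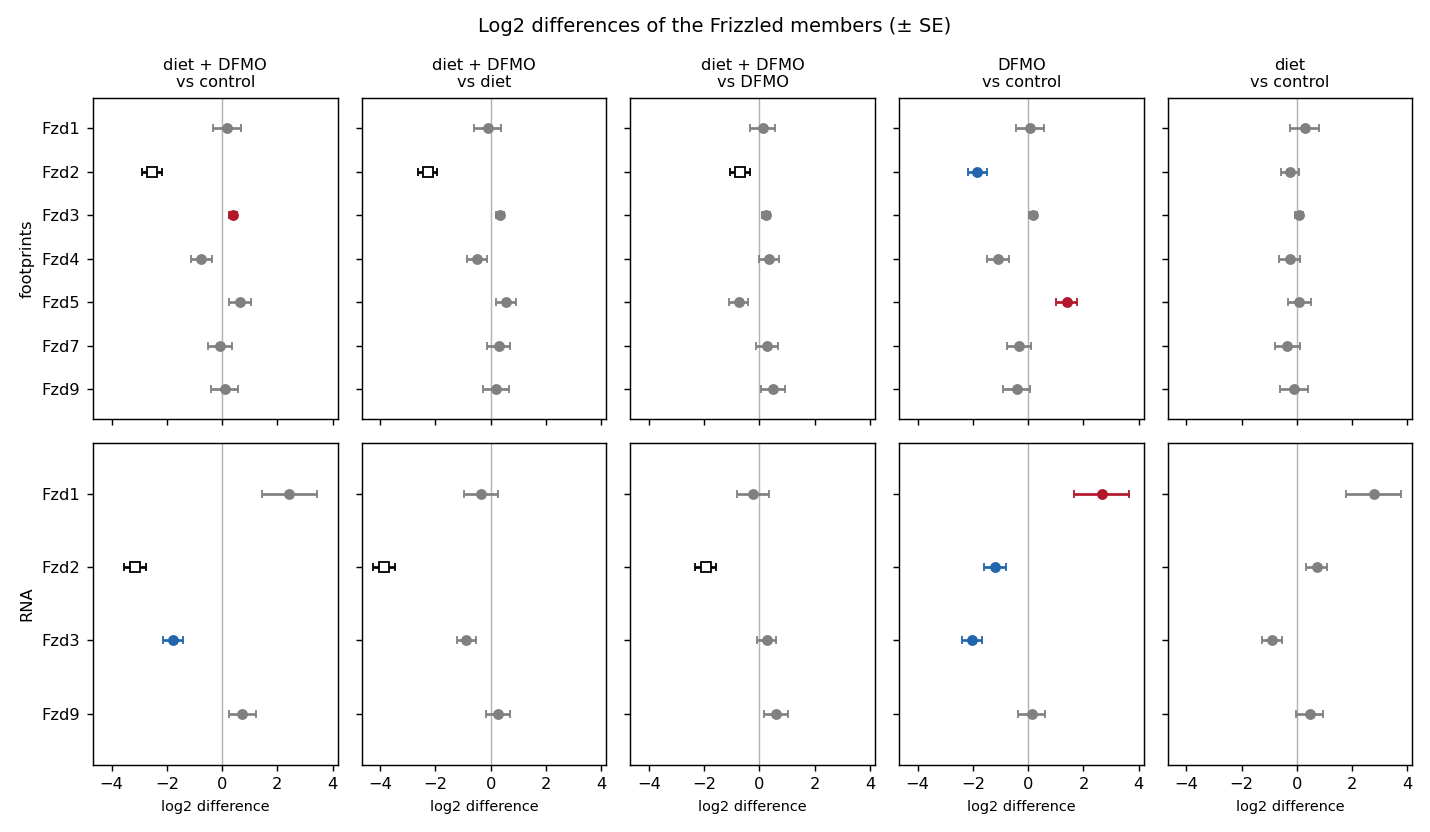
Log2 differences with SE bars of each Frizzled member that passed the filter in 5 comparisons, footprints above (7 members) and RNA below (4 members). Red marks calls higher, blue calls lower, grey no call, and open squares Fzd2 in contrasts with diet plus DFMO, which carry no test; Fzd1 RNA rests on 2 control counts. Fzd2 footprints reach -2.55 while Fzd1, Fzd7 and Fzd9 stay between -0.06 and 0.17 in the contrast with control.

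The makeup of the family differed between the groups with and without DFMO. Summed Frizzled footprints were 25.7 ± 2.00 RPKM in PD mice, 27.0 ± 8.37 in D, 33.8 ± 5.54 in P and 39.9 ± 4.53 in C (SD, n = 5 each). Fzd2 held 14.6 ± 8.03% of that sum in PD mice, 23.5 ± 3.84% in D, 50.2 ± 8.53% in P and 54.9 ± 9.23% in C. Fzd3 held 47.5 ± 9.86% in PD, 39.2 ± 8.71% in D, 25.8 ± 5.53% in P and 22.2 ± 5.25% in C, so that it, not Fzd2, led in the groups with DFMO. Shares of a sum are tied to each other, so a lower share of Fzd2 alone gives higher shares of the others.

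**Figure D4:**
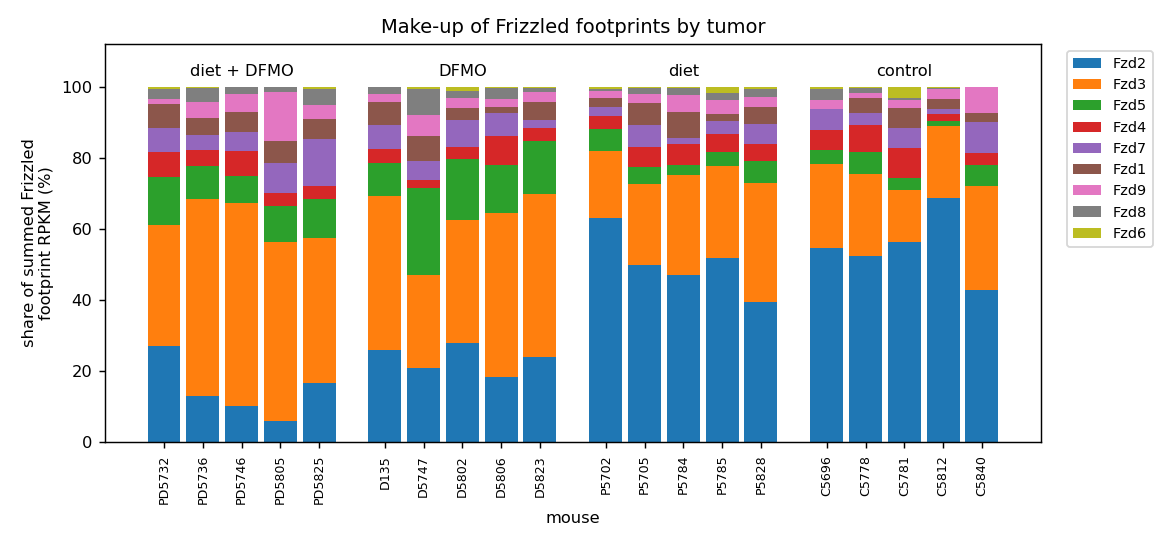
Share of each Frizzled member in the summed Frizzled footprint RPKM of each tumor, in percent, 1 stacked bar a mouse, grouped as diet plus DFMO, DFMO, diet and control. The Fzd2 segment averages 14.6% in diet plus DFMO and 54.9% in control, and the Fzd3 segment 47.5% in diet plus DFMO and 22.2% in control.

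Footprints were high for the RNA in most members. In diet plus DFMO the ratio of mean footprint to mean RNA RPKM was 53.5 for Fzd5, 18.4 for Fzd7, 13.8 for Fzd1, 12.8 for Fzd8, 8.42 for Fzd4, 4.19 for Fzd2 and 2.74 for Fzd3. The median over 13951 transcripts was 1.07, and Fzd5 stood at the 99.1st percentile. Fzd9 was the exception at 0.415, the 19.3rd percentile. For Fzd5, Fzd7, Fzd1, Fzd8 and Fzd4 the RNA side rests on the few counts given above.

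Elsewhere in the Wnt pathway some genes changed in diet plus DFMO, in both directions. Lef1, a DNA-binding partner of β-catenin and itself a target, had 3.78 ± 1.46 CPM in PD mice and 14.2 ± 3.63 in C mice (-1.91 ± 0.41, edgeR adjusted p = 0.00178). Lgr5, a receptor for R-spondins that keeps Frizzleds on the surface, had 34.9 ± 7.32 CPM in PD mice and 61.8 ± 8.68 in C mice (-0.82 ± 0.17, edgeR adjusted p = 0.00101). Its relative Lgr4 was lower as well (-0.57, edgeR adjusted p = 0.0243), which made 2 of 3 tested receptor turnover genes lower and 0 higher. Of 7 tested feedback targets, 2 were lower, Lef1 and Lgr5, and 0 higher, and Axin2 was at -0.57 (edgeR adjusted p = 0.104). Over all transcripts 15.5% were called lower and 16.7% higher. The median log2 difference was -0.57 in each of these lists and 0.02 over all transcripts. The lists are not separate, since Lgr5 is in both, and Lef1 is counted again among the nuclear effectors below.

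Upstream of the receptors, 1 of 2 tested Wnt ligands of 19 listed was lower, Wnt3, at -1.48 ± 0.44 (edgeR adjusted p = 0.0125, 0.954 ± 0.592 CPM in PD mice and 2.97 ± 1.12 in C mice). Of 5 ligand release genes, the glypican Gpc6 was higher (0.96, edgeR adjusted p = 0.000318). The Wnt5a co-receptor Ror2 was the 1 higher gene of 6 co-receptors (0.59, edgeR adjusted p = 0.00861), and Lrp5 and Lrp6 were not called, at -0.32 and 0.13. Of 6 secreted inhibitors, 2 were higher. Dkk3 averaged 20.4 ± 20.7 CPM in PD mice, with a spread as large as its mean, and 1.37 ± 0.572 CPM in C mice (3.93, edgeR adjusted p = 0.00122). Sfrp5, a decoy for Wnt, was at 3.33 (edgeR adjusted p = 0.0423), with 2.11 ± 1.06 CPM in PD mice and 0.145 ± 0.205 in C mice. So low in the controls, Sfrp5 passed the filter on low counts only through the groups with DFMO, and nothing is read from its call.

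Downstream, 3 of 11 Dishevelled and planar polarity genes were higher and 2 lower. Dvl1 was higher (0.85, edgeR adjusted p = 0.000105) and Dvl2 lower (-0.64, edgeR adjusted p = 0.00146), and likewise Prickle2 was higher (2.04, edgeR adjusted p = 0.000661) and Vangl2 lower (-0.80, edgeR adjusted p = 0.00357). Of 9 genes of β-catenin and its destruction complex, Csnk1a1 (0.39), Gsk3b (0.50) and Apc (0.52) were higher and Axin1 (-0.43) lower, each past an edgeR adjusted p of 0.05, and Ctnnb1, which encodes β-catenin, was at -0.01 (edgeR adjusted p = 0.944). Of 9 nuclear effectors, Pygo1 (1.14) and Tle3 (0.56) were higher and Lef1 and Bcl9 (-0.70) lower. Median log2 differences were -0.64 for the ligands, 0.05 for ligand release, -0.07 for co-receptors, 0.22 for secreted inhibitors, 0.02 for Dishevelled and planar polarity, 0.04 for the destruction complex and 0.09 for nuclear effectors. Over all transcripts 16.7% were called higher and 15.5% lower. The lists were chosen with results of these data known, and no list was tested as a whole.

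**Figure D5:**
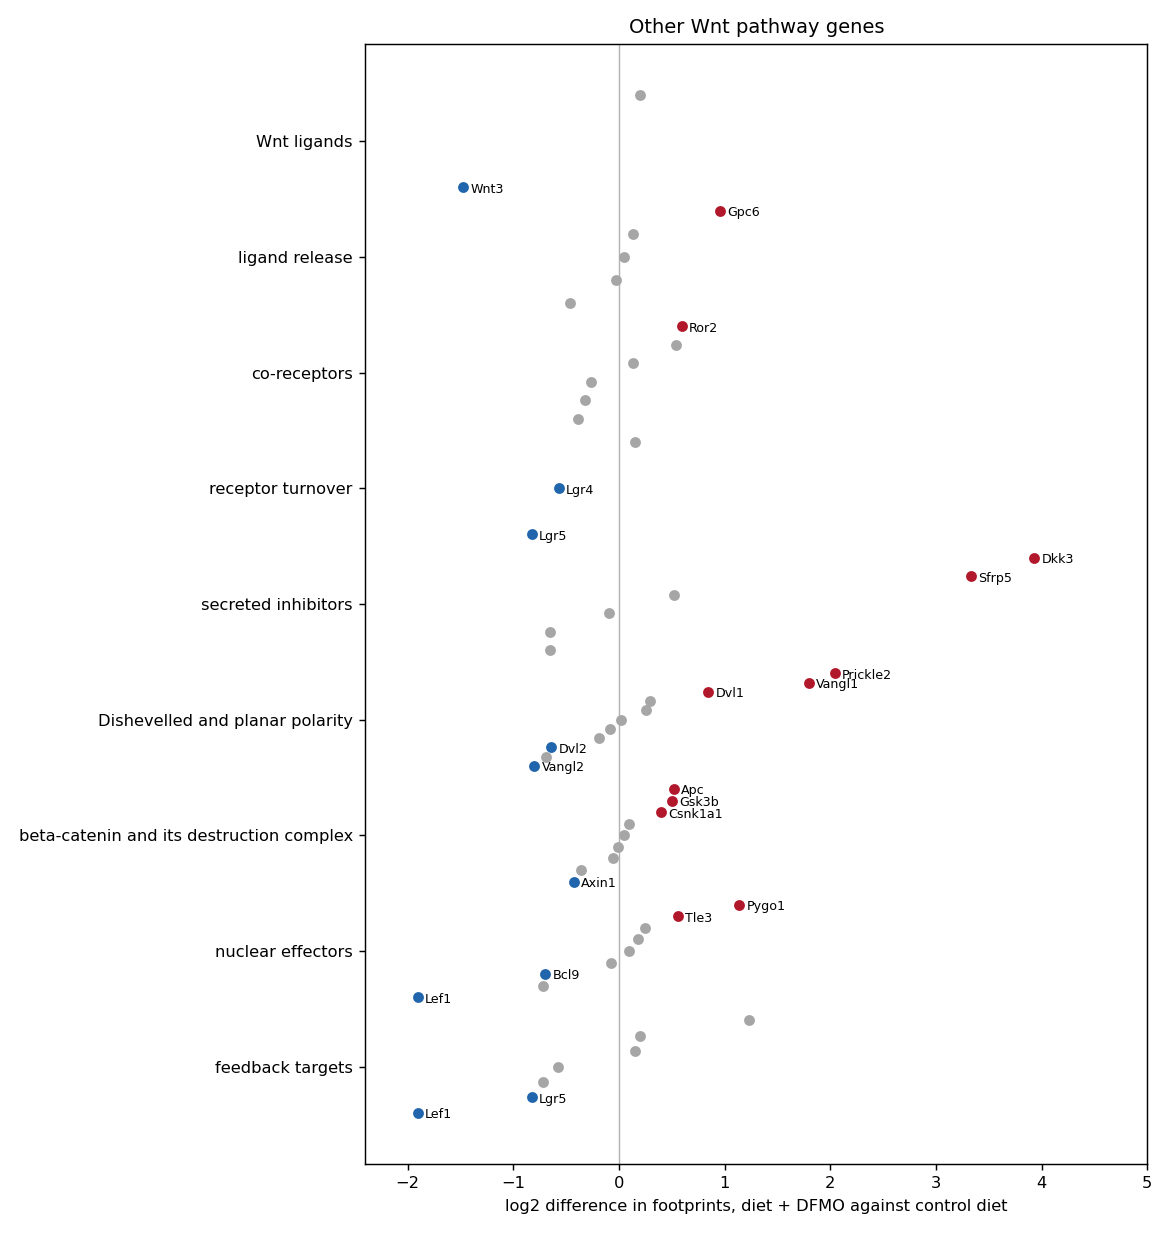
Log2 difference in footprints between diet plus DFMO and control for the other Wnt pathway genes that passed the filter, 1 row a list, with called genes coloured and named. Called genes lie on both sides of 0, from Lef1 at -1.91 to Dkk3 at 3.93.

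With DFMO alone, Lef1 was lower than control as well (-1.20, edgeR adjusted p = 0.0421), and Prickle2 (1.48), Vangl1 (1.67), Apc (0.74), Gsk3b (0.48), Csnk1a1 (0.35), Pygo1 (0.85), Sfrp5 (4.83) and Sfrp1 (1.70) were higher. Sfrp5 averaged 5.88 ± 7.24 CPM in D mice, with a spread larger than its mean, and 0.145 ± 0.205 in C mice. It passed the filter on low counts only through the groups with DFMO, so nothing is read from this call either. No ligand, ligand release, co-receptor or receptor turnover gene was called. Over all transcripts 9.24% were called higher and 8.84% lower, so no call in lists this short is not read as a result. These comparisons share their control mice with those of diet plus DFMO.

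Markers of other cells also differed in diet plus DFMO against control, where 15.5% of all transcripts were called lower and 16.7% higher. Of 8 macrophage markers 7 were lower, with sums of 252 to 342 CPM in PD mice and 362 to 476 CPM in C mice, and of 12 endothelial markers 5 were lower. Of 12 fibroblast and pericyte markers 1 was lower, with sums of 1396 to 2369 CPM in PD mice and 1351 to 2922 CPM in C mice. Adrenal cortex markers were 2 of 5 higher, with sums of 64.8 to 206 CPM in PD mice and 11.2 to 102 CPM in C mice. Among the neuroblast markers Th was higher, and Chga and Mycn were lower. Of 3 Schwann cell markers tested 1 was higher. The 7 such markers in the table summed to 7.09 to 14.5 CPM in PD footprints, above the 2.07 to 4.52 CPM of C footprints. In RNA their PD sums, 4.02 to 8.67 CPM, lay within the C range of 3.48 to 15.6 CPM. With DFMO alone, where 8.84% of transcripts were called lower and 9.24% higher, 6 of 8 macrophage markers were lower than control, with sums of 255 to 334 CPM in D mice against 362 to 476 CPM in C mice, and of the fibroblast and pericyte markers 2 were higher and 1 lower. All 3 Schwann cell markers tested in footprints were called higher with DFMO alone. In RNA 6 of 7 were called higher and 1 lower, where 21.9% of RNA transcripts tested were called higher and 17.5% lower. So low in the controls, these markers may have passed the filter on low counts only through groups with DFMO. That favours a call higher, and nothing is read from the Schwann cell calls, also in diet plus DFMO. The 7 in the table summed to 7.49 to 98.4 CPM in D footprints against 2.07 to 4.52 CPM in C footprints, with up to 1 of them at 0 in a D library and 1 to 4 in a C library. In RNA they summed to 36.2 to 108 CPM in D mice against 3.48 to 15.6 CPM in C mice. These ranges did not overlap, but 1 to 6 of the 7 were at 0 in a C RNA library, and most of those libraries were of low complexity. Fzd5 and Sfrp1 were called higher with DFMO alone as well. No macrophage, endothelial or fibroblast marker was at 0 in any footprint library. The part of these cells in the Fzd2, Fzd5 and Wnt values was not tested.

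Footprint levels that ranked the 20 tumors most like Fzd2 belonged to Lrrc45, Gfer and Fasn (Spearman's rho = 0.928 each), Ppp1r14a (0.923) and Pfn1 (0.919), of 7345 transcripts with a mean of at least 10 CPM. Within the family, rho with Fzd2 was 0.65 for Fzd6, 0.48 for Fzd4, -0.67 for Fzd3, -0.41 for Fzd5 and between -0.20 and 0.06 for Fzd1, Fzd7, Fzd8 and Fzd9. These are descriptions over 20 libraries that share the 4 treatment groups and differ in depth.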

How the data were processed

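Per the labels' protocols, frozen tumor powder was lysed with cycloheximide, RNase I trimmed the extracts, S-400 columns gave monosomes, and RNA came from the same extracts. Per the submitters' processing notes, cutadapt, HISAT2, Bowtie2 and GRCm38 were used; their versions, the counter and the annotation release were not given in the sources used here. The authors deposited raw counts per transcript and RPKM values, whose length matches the coding sequence. All columns were used (0 left over).

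Counts were tested with edgeR 4.0.16 in R 4.3.3 (robust quasi-likelihood F test, TMM scaling, filterByExpr, all groups in 1 fit). Efficiency was the assay-by-group interaction in all 39 libraries. Benjamini-Hochberg adjustment ran over every transcript tested, with calls at 0.05, and p values measure the spread between mice. CPM is TMM-adjusted. Log2 CPM used a prior count of 2, and log2 RPKM a pseudocount of 0.1. The code was tested on simulated data. Alternatives were RLE scaling, no filter, DESeq2 1.42.0, limma 3.58.1 on RPKM, the mouse as a block, leaving out each mouse, and leaving out RNA libraries. Leaving out the unmatched libraries was chosen after seeing the data. Libraries under 14000 detected transcripts were called low-complexity.

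The footprint and RNA libraries of 19 mice pair through the mouse, per the labels. Deviations from group means correlated at -0.278 to 0.574, over 0.1 in 9 of 19 pairs.

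All 9 members are described. Wnt genes are named as up to 4 called members of a list with the smallest p in diet plus DFMO against control, and 5 transcripts by Spearman correlation with Fzd2. The result of 1 neuroblast marker is not reported here. Members, lists and markers were chosen with earlier results of these data known. Genes named outside these rules (Lrp5, Lrp6, Ctnnb1, Axin2 and those of DFMO alone) were chosen after their values were seen. Sequences and coordinates are of GENCODE M21, in which 20244 of 20333 transcripts were found; Fzd8 sequence is not shown. Figures used Python 3.11.15 and matplotlib 3.10.9.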

Additional observations from a re-analysis of the deposited data

Results flagged for a closer look

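Of 71 groups examined, 14 held 1 mouse far from the others of its group. The limits used flag about 1 in 20 groups by chance only where values are normally distributed. A group with counts in only 1 library is always flagged, so no excess over chance is read from the 14. In control RNA, C5812 was the only library with counts of Fzd1 (0.0580 CPM), Fzd4 (0.174 CPM), Fzd5 (0.0871 CPM), Fzd6 (0.0871 CPM) and Fzd8 (0.0290 CPM), with 1 to 6 counts a gene, and the other 3 controls are the low-complexity libraries. Control C5781, whose RNA is of low complexity, was high in Fzd3 RNA (56.7 CPM, others 11.8 to 17.5), low in Fzd3 footprints (12.4 CPM, others 17.4 to 19.2) and high in Fzd6 footprints (2.90 CPM, 7 counts, others at most 0.457). D5747 was high in footprints of Fzd8 (5.03 CPM, others 0.525 to 1.30) and Fzd9 (3.55 CPM, others 0.768 to 1.48). The remaining ones were Fzd3 RNA in PD5736 (8.11 CPM, others 7.08 to 7.27), Fzd6 RNA in D135 (0.125 CPM, others at most 0.0309), Fzd8 RNA in P5705 (0.250 CPM, others at most 0.0710) and Fzd8 footprints in P5702 (0.600 CPM, others 1.29 to 1.46).

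In Fzd2 RNA on the CPM scale the diet went opposite ways with and without DFMO. The log2 difference was -1.95 for diet plus DFMO against DFMO alone and 0.71 for the diet alone against control, which was not called (edgeR adjusted p = 0.227). In CPM every mouse lay on the side of its group, but on deposited RPKM P5828 (3.98) lay below C5696 (5.93) and C5812 (8.68). The difference of these effects, -2.66, was not tested, because Fzd2 was chosen for its level in diet plus DFMO.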

How the results depend on the processing

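In control footprints the depth limits the sparse members, and RNA of the controls rests on 4 libraries, 3 of them of low complexity. The number of members called, Fzd2 left out of contrasts with diet plus DFMO, changed by at least 1.5 times as follows. In footprints of diet plus DFMO against diet alone it was 0, and 1 on RPKM with limma. In RNA of diet plus DFMO against control it was 1, and 2 with RLE, with no filter and with limma. In RNA against diet alone it was 0, and 1 without the low-complexity libraries, with or without the unmatched ones. In RNA of DFMO alone against control it was 3, 5 with no filter, 2 with limma and 1 without the unmatched libraries. Fits against control without the low-complexity libraries hold C5812 as the only control RNA, and their calls are not counted. In efficiency it was 1 for diet plus DFMO against control and 2 with no filter. Against diet alone it was 0, and 1 without the low-complexity libraries, with or without the unmatched ones. It was 1 for DFMO alone, 2 with no filter and 3 with limma. For the diet alone it was 0, and 1 with DESeq2 or limma. The cause was not tested.

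Leaving out each mouse in turn gave 0 to 1 members called in footprints of diet plus DFMO against control and against diet alone, 1 to 3 for DFMO alone, and 0 to 0 otherwise. In RNA it gave 1 to 2, 0 to 1 and 1 to 3, with 0 to 2 for the diet alone. In efficiency it gave 0 to 1 against diet alone and for the diet alone.

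Directions that turned were of members with no call. With limma, footprints of Fzd7 were at 0.081 against control and of Fzd1 at 0.15 against diet alone in diet plus DFMO, and of Fzd3 at -0.022 in the diet alone. In efficiency Fzd2 was at -0.36 with limma against control. Fzd9 was at 0.017 against diet alone without the low-complexity and unmatched libraries. Against DFMO alone Fzd3 was at 0.092 and Fzd9 at 0.22 with limma. Without 1 mouse, footprint differences spanned -0.36 to 0.14 for Fzd7 against control, -0.028 to 0.44 against DFMO alone and -0.012 to 0.58 against diet alone. For Fzd1 they spanned -0.10 to 0.47, -0.13 to 0.45 and -0.35 to 0.10 in that order, -0.28 to 0.35 with DFMO alone and -0.48 to 0.17 in the interaction. For Fzd9 they spanned -0.32 to 0.51 against control, -0.22 to 0.39 against diet alone, -0.99 to 0.0069 with DFMO alone and -0.30 to 0.32 with the diet alone, where Fzd5 spanned -0.12 to 0.38 and Fzd3 -0.014 to 0.12. Fzd9 RNA spanned -0.12 to 0.61 with DFMO alone. In efficiency Fzd1 spanned -0.14 to 0.63 and Fzd9 -0.22 to 0.37 against diet alone, and Fzd3 -0.091 to 0.042 and Fzd9 -0.26 to 0.40 against DFMO alone.

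With the mouse as a replicate block, Fzd3 efficiency was 1.94 in diet plus DFMO (edgeR adjusted p = 0.0051) and 1.98 with DFMO alone (edgeR adjusted p = 0.0032), and Fzd9 turned to 0.18 against DFMO alone. The block changed no other call of a member. Over all transcripts it called 3 higher and 40 lower in efficiency of the diet alone, against 120 and 444 without it.

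The median RNA difference over all transcripts in diet plus DFMO against control was 0.31 with TMM, 0.48 with RLE, 1.29 on RPKM and 0.09 without the low-complexity libraries. RNA calls over all transcripts in this contrast were 3298 higher and 2529 lower, and 7614 and 726 with limma. Without the low-complexity libraries C5812 is the only control RNA, and calls are not counted. Against diet alone they were 1289 and 1239, and 1530 and 865 with RLE.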
